A study of Mus musculus with 64 samples.

Results

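Clone M is 1 of 7 tumor lines subcloned from a pancreatic tumor of a KPC mouse, a model whose alleles include Trp53 R172H, switched on by Pdx1-Cre, a recombinase driven by a promoter of the pancreatic lineage. Its 4 mono-culture libraries, of 64 tumor cell libraries in all, were compared with the 24 mono-culture libraries of clones E, H, K, N, T and V, 4 for each, and the 4 libraries of each clone were averaged first. The KPC1 line was left out. The labels alone, which name clone and culture and a C57BL/6 mixed background, decided which libraries entered, and no measured value was used. All 7 clones came from tumor cells of 1 mouse and carry the same driver alleles, each clone is a single line, and nothing in the labels says that the 4 libraries of a clone came from separate cultures, so the p-values measure only the spread between these libraries. The study related differences in metabolism among these clones to their gene expression, and the question here is which genes were on, off, highest or lowest in clone M.

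Subclones of 1 tumor share most of their driver lesions and can still differ in gene expression by copy number, by promoter state and by signalling, and such differences are kept through many divisions when a promoter is silenced or a gene is lost. In pancreatic tumor cells, epithelial genes such as Cdh1 and keratins stand at 1 end of a range of states and mesenchymal genes such as Vim at the other. The integrated stress response (ISR), which acts through the transcription factor ATF4, raises amino acid synthesis, uptake and tRNA charging, and interferon-responsive genes serve antiviral defence and antigen presentation.

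The 4 clone M libraries held between 15236445 and 16500364 counts, within the range of 11661214 to 21333683 over the 28 mono-culture libraries. Replicate 3 stood apart from the other 3. In counts per 1000000 with libraries scaled by trimmed means (CPM), Gm26924, a gene model that holds ribosomal RNA sequence, was at 210, 166, 28534 and 183 in replicates 1 to 4, and at most at 488 in any library of the other clones. The RNA component of 7SK, Rn7sk, was at 69.1 in replicate 3 and at most at 1.25 in the other 3. These and 7 further genes for ribosomal RNA, mitochondrial ribosomal RNA and other non-coding RNA took 3.77% of the counts of replicate 3, between 0.141% and 0.166% in the other 3 clone M libraries, and between 0.0627% and 0.213% in the 24 other libraries. Libraries were made from polyadenylated RNA, and how these RNAs came into replicate 3 was not tested. Results are therefore given with and without replicate 3 where they rest on it.

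**Figure D1:**
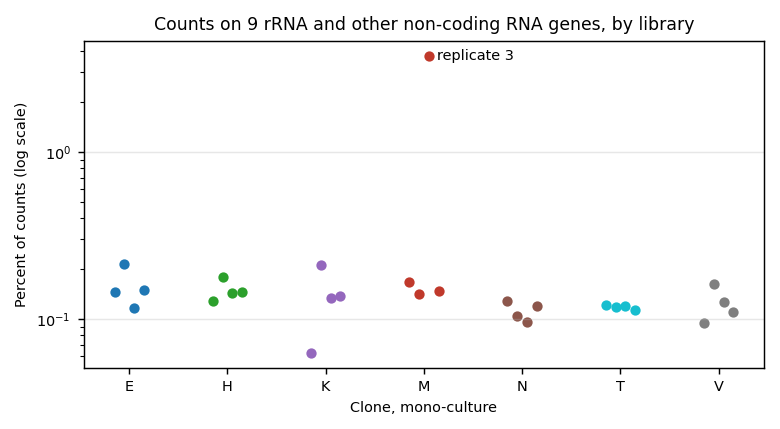
Percent of all counts, on a log axis, that fell on 9 genes for ribosomal and other non-coding RNA, 1 point for each mono-culture library, by clone. Replicate 3 of clone M is at 3.77%, and the other 27 libraries are between 0.0627% and 0.213%.

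Clone M expressed keratins, as an epithelial tumor line does, and was low in Cdh1, but its epithelial genes did not move 1 way. Of 23 ductal and epithelial genes tested, 11 were higher and 8 lower than the mean of the other clones, where 35.5% and 29.8% of all genes were, with a median log2 difference of 0.13. Ocln, the tight junction gene occludin, picked out after its values were seen, was at 42.7 CPM against clone means from 0.359 to 30.1, a log2 difference of 2.98 (SE 0.105, adjusted p = 3.43e-18 by edgeR's quasi-likelihood test). Tjp3, also of tight junctions, and the epithelial transcription factor gene Grhl2 were higher as well, by 2.10 and 1.40. Krt8 was at 721 ± 137 CPM (SD, n = 4) and Krt18 at 973 ± 126, below the lowest other clone means of 862 and 1071, respectively, with single libraries that overlapped. Krt19 was at 543 ± 122, inside the range of 171 to 920 of the other clones, and the ductal transcription factor gene Sox9 was at 207 ± 11.3. The epithelial adhesion gene Epcam was near 0 in all 7 clones, with 0.202 in clone M and at most 0.372 elsewhere. Vim was at 5626 ± 452 in clone M and between 3503 and 7206 in the other clones. Summed fibroblast markers were between 286 and 386 CPM in clone M mono-cultures and between 260 and 893 in the other libraries, and 6 of 20 had no count in clone M. Y-linked genes were expressed, as in the other clones, with Ddx3y at 52.7 ± 2.46, and Xist was at 0.0623.

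Of 13509 genes tested with edgeR's quasi-likelihood test, 4802 were higher in clone M than the mean of the other 6 clones and 4019 were lower at an adjusted p under 0.1, which is 35.5% and 29.8% of the genes. The median size of the difference was 0.34 on the log2 scale. A stricter rule asked for an adjusted p under 0.1 and a log2 difference of at least 1 from each of the other 6 clones. It called 147 genes highest (1.09%) and 93 lowest (0.688%) in clone M. The same rule called between 46 and 215 genes highest and between 38 and 309 lowest in the other 6 clones, so clone M was within the range of its sister lines. Without replicate 3 of clone M, 132 of the 147 genes highest and 88 of the 93 lowest kept their call. The 15 that lost it included Gm26924, Gm26917, Rn7sk, mt-Rnr1 and Lars2. In a test that set the summed counts of clone M against 6 clone sums, so that the error was the spread between clones, 4 genes passed. They were Gm26924, Gm26917, Rn7sk and Gm25732, and for each of the 4 replicate 3 was above all 27 other libraries. At an unadjusted p under 0.05, 695 of 12621 genes passed in that test.

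Genes off in clone M alone, under 0.1 CPM there and at least at 1 CPM in each other clone, were Kctd15, Ckb, 5730559C18Rik and Gm22. The last 2 lay outside the rule for naming genes and are named because the set is small. Kctd15, a BTB-domain protein gene, had 0, 0, 1 and 1 counts in the 4 clone M libraries and 14867 counts over the 24 others. Its clone means elsewhere ranged from 17.6 CPM in E to 53.3 in H. The ratio of the others to clone M was 1240, with a 95% exact interval from 342 to 10200 that covers counting error only. Ckb, which encodes the brain-type creatine kinase that buffers ATP, had 2, 1, 0 and 0 counts in clone M and 3194 over the others, where clone means ran from 4.12 CPM in K to 15.2 in N. The ratio of the others to clone M was 177, from 60.5 to 858. 5730559C18Rik had 4 counts in clone M and 17286 in the others. No library of clone M overlapped any other library for these 3 genes.

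Genes on in clone M alone, at 1 CPM or more there and under 0.1 CPM in each other clone, numbered 6. They were Ndn, Ahrr, Zcchc3, Itln1, Gm5544 and Rmrp, of which Gm5544 lay outside the naming rule. Ndn, the imprinted gene for the growth suppressor necdin, had 66, 64, 59 and 55 counts in the clone M libraries and none in the 24 others. Its mean was 3.82 ± 0.326 CPM (n = 4), at least 490-fold higher than the level that 3 counts over the 24 libraries would give. Ahrr, the repressor of the aryl hydrocarbon receptor, had 30, 27, 39 and 20 counts in clone M and 1 in all the others. Zcchc3, a nucleic acid sensing cofactor gene, had 23, 19, 12 and 25 counts, also against 1, and Itln1, which encodes the lectin intelectin, had 16, 20, 7 and 30 against 4. Every clone M library was above all others for these 4 genes. Rmrp had 1, 2, 144 and 0 counts in clone M, so its mean of 2.42 CPM was set by replicate 3, and without that library 5 genes met the rule. On the deposited RPKM scale, with the same limits, 5 other gene models were on in clone M alone, Ndn being at 0.968 RPKM there and at 0 elsewhere.

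The promoters of 3 of these genes, Kctd15 and Ckb off and Ndn on in clone M alone, are shown because these genes separate clone M from every sister line. Each runs from 250 bases before to 50 after a transcript start that RefSeq lists on GRCm38.p6, in the direction of the gene, and CG dinucleotides, which can be methylated and read the same on both strands, are in capitals. The motif searched was CG.
Kctd15: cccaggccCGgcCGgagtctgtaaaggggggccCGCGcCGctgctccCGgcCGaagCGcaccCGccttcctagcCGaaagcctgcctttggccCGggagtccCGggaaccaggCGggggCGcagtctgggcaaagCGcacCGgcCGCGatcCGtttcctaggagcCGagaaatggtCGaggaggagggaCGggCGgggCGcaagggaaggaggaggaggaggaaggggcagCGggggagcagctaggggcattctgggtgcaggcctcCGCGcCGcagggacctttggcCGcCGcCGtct
Ckb: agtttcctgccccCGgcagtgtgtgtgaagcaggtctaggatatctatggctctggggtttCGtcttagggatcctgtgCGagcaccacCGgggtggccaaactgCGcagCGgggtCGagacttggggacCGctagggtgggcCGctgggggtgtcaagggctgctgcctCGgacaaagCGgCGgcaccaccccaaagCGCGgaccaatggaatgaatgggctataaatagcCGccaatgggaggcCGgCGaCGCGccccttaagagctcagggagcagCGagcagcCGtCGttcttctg
Ndn: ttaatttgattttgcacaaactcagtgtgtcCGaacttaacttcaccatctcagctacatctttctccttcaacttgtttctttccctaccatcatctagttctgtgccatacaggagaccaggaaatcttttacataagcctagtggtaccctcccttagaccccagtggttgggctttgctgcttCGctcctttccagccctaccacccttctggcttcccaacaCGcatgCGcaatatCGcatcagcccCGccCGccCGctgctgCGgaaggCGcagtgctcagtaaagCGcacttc
The Kctd15 stretch lies at chr7:34655460-34655759 on the minus strand, at the first of 3 starts listed, inside the gene, which GENCODE M21 places at chr7:34639014-34656732. It holds 31 CG, a number that 10.6% of 32851 promoters of this length reach. The Ckb stretch at chr12:111672289-111672588, minus strand, holds 22 CG, reached by 23.1% of promoters. The Ndn stretch at chr7:62348027-62348326, plus strand, also lies inside the gene, which GENCODE M21 places at chr7:62346569-62350262. This stretch holds 11 CG, reached by 41.4%, and the median over promoters is 7. No methylation was measured in this series.

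The tested genes on either side of the silent ones were expressed in clone M. Next to Kctd15, Lsm14a was at 134 CPM in clone M and between 129 and 178 in the other clones, and Pepd was at 64.5 and between 35.8 and 67.8. Next to Ckb, Mark3 was at 49.9 against 56.6 to 84.5 and Trmt61a at 4.61 against 5.53 to 12.7. Of the tested genes next to Ndn, the imprinted gene Snrpn had no count in clone M or in clone T, and its mean was up to 15.7 CPM elsewhere. Mkrn3, also imprinted, was at 1.57 CPM in clone M and between 0 and 2.88 in the others.

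Among genes highest in clone M, ranked by the gap of log2 mean CPM to the nearest clone, were genes for a channel, matrix proteins and a growth factor. Cftr, the chloride channel of ductal epithelium, was at 5.47, 6.52, 6.64 and 5.14 CPM and at most at 0.402 in any other library. Clones H and K had no count of it. Its log2 difference from the mean of the others was 6.80 (SE 0.27, adjusted p = 1.6e-14). Col14a1, a fibril-associated collagen, was at 13.5, 16.6, 4.67 and 19.1, above the highest other library of 4.14, with its lowest value in replicate 3. Igf1, a ligand of the insulin-like growth factor receptor, was at 14.1, 15.04, 9.60 and 14.98, and the highest other library was at 2.49. Its log2 difference was 4.56 (SE 0.216, adjusted p = 1.61e-15).

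Tnxb, tenascin-X, was at 94.5, 86.2, 84.3 and 142 CPM, and the other clone means ran from 0.332 in H to 18.6 in N (log2 difference 4.05, SE 0.242, adjusted p = 9.4e-13). Tnr, tenascin-R, was at 54.7, 37.95, 33.4 and 71.0 against at most 12.5 in any other library. Sfrp1, a secreted antagonist of Wnt ligands, was at 308, 339, 346 and 338, while the other clones ran from 0.642 in E to 145 in K (log2 difference 4.52, SE 0.15, adjusted p = 9.38e-18). The groups did not overlap for any of these 3 genes, and K was the clone nearest to M in Sfrp1. The Wnt receptor gene Fzd3 was also highest, at 7.62 ± 0.684 CPM.

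Fam107a, an actin-associated stress gene, was at 15.9, 19.9, 26.2 and 25.6 CPM with at most 6.07 in any other library. Pth1r, the parathyroid hormone receptor, was at 5.07 ± 1.15 and Rtn4r, the Nogo receptor, at 5.92 ± 0.419, with other clone means of at most 0.857 and 1.10, respectively. Slc43a3, a purine base transporter, was at 5.46 ± 1.62, and H was next at 0.718. Pyroxd2 was at 6.95, 9.23, 8.16 and 20.6, and the microtubule-associated Eml6 at 12.4 ± 3.69. All of these kept the call without replicate 3. The cholesterol exporter Abca1 was at 133 ± 38.8 CPM in clone M and between 3.25 and 63.4 in the other clone means, although its library in replicate 3, at 79.5, fell below the highest other library of 96.7.

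Genes lowest in clone M included adhesion and signalling genes that the sister lines expressed at very different levels. Cdh1, E-cadherin, was at 0.951, 1.29, 0.855 and 0.917 CPM. Its mean elsewhere ran from 6.04 in K to 305 in V, and the lowest other library was at 4.58 (log2 difference -5.90, SE 0.148, adjusted p = 1.22e-21). Wnt7b, a Wnt ligand of epithelial cells, was at 1.84, 2.19, 2.96 and 1.22 and between 17.5 in T and 181 in V. Its log2 difference was -4.47 (SE 0.434, adjusted p = 5.35e-09). No clone M library reached the lowest of the 24 others for either gene.

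Nt5e and Xdh, enzymes of purine breakdown, were both lowest. Nt5e, the ectonucleotidase CD73 that makes adenosine from AMP, was at 0.238, 0.258, 0.197 and 0.245 CPM, while clone means elsewhere ran from 3.39 in K to 46.8 in H. Xdh, xanthine dehydrogenase, was at 1.96, 1.42, 0.658 and 1.41 and between 8.60 and 68.7 in the others. Their log2 differences were -5.65 (SE 0.608, adjusted p = 2.87e-08) and -4.33 (SE 0.195, adjusted p = 6.3e-16). The adaptor gene Stac2 was at 0.312 ± 0.164 against 3.27 to 77.5, and the water channel gene Aqp5 at 1.14 ± 0.27 against 6.85 to 23.3. Cdkn1a, the cell cycle inhibitor p21 and a p53 target, was at 1.43, 1.48, 3.75 and 2.26, below the lowest other library of 5.57. The lactate dehydrogenase B gene Ldhb had no count in clone M and 558 over the other libraries, at least 30.9-fold lower than the others by 3 counts over the 4 libraries. Pdgfrb, a receptor of platelet-derived growth factor, was at 4.21 ± 1.87 against 9.66 to 86.5, and it no longer met the rule without replicate 3.

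**Figure D2:**
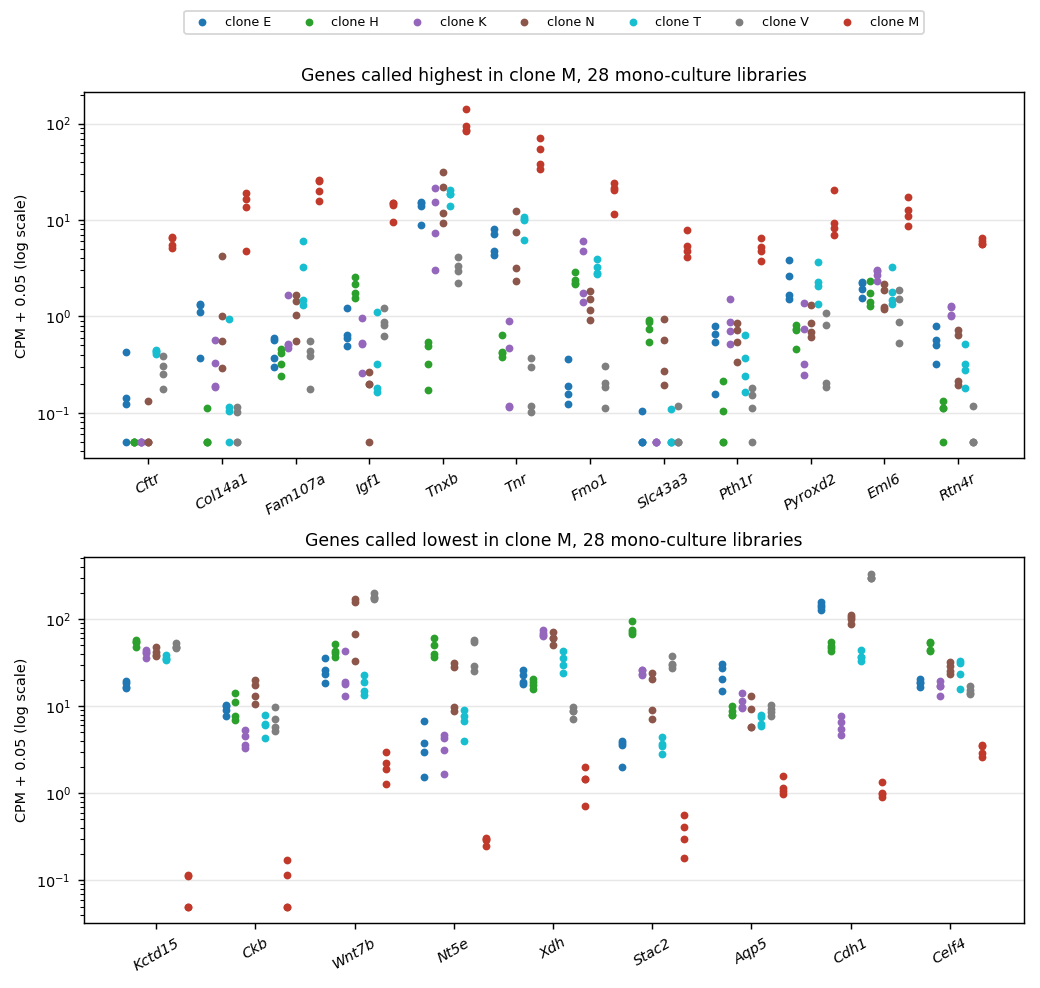
CPM plus 0.05, on a log axis, of 12 genes highest (top) and 9 genes lowest (bottom) in clone M, with 1 point for each of 28 mono-culture libraries, coloured by clone. The red points of clone M lie apart from those of every other clone for each gene.

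Members of several gene families were called together, and these were picked out after their values were seen. Of 22 protocadherin beta genes, adhesion genes of 1 cluster on chromosome 18, 13 passed the filter on low counts. All 13 were lower in clone M than the mean of the others, where 29.8% of all genes were. Of the 13, 6 were lowest, where 0.688% of all genes were. Pcdhb11 was at 0.0317 CPM in clone M and at most at 0.922 in the other clone means. Such a gene can pass the filter only through the other clones, so the count of 13 does not stand apart from the filter. The family sum was 3.51, 3.10, 2.70 and 4.83 CPM in the clone M libraries, below the lowest other library of 5.48, and it ran up to 91.1 in H. In co-culture the sum was 5.71 ± 0.657 in clone M and 4.999 in the lowest other clone, and none of the 6 genes was lowest there. Reads of these near-identical genes can be split among them, so the sum is firmer than any member. Fmo1 and Fmo5, flavin-containing monooxygenase genes whose products oxidise drugs, were highest. Fmo1 was at 24.2, 20.5, 11.6 and 21.3 CPM and at most at 5.97 in any other library. Of 56 replication-dependent histone genes of the Hist1 cluster, 17 passed the filter on low counts. Of these, 16 were higher, where 35.5% of all genes were. Hist1h3i was at 1.31, 0.6455, 1.38 and 2.57 CPM and at most at 0.518 in any other library. A gene at such levels can pass the filter through clone M alone, so the count of 16 does not stand apart from the filter. The family sum was 373, 320, 450 and 643 CPM in the clone M libraries. That sum overlapped the other libraries, which reached 448. The highest sum was that of replicate 4. Among the other clones K came nearest, with a mean of 360. Hist1h1e, called highest, lost that call without replicate 3. The members called highest that have a position lie on chromosome 13, where the genes of M, K and V alike stood higher. What part this had in the sum was not tested.

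Most genes of the integrated stress response list were lower in clone M. Of 40 genes on the list for this response and asparagine, 25 were lower than the mean of the others and 7 were higher, where 29.8% and 35.5% of all genes were. Clone M had the lowest mean of the 7 clones in 21 of the 40, and in 14.8% of all genes. The median log2 difference was -0.89 on the list and 0.03 over all genes. The study had chosen asparagine metabolism as its subject in these clones, so the list is not independent evidence. Atf4 itself was at 184, 170, 315 and 208 CPM in clone M and between 327 and 907 in the other clone means. Asns, which makes asparagine, was at 39.6, 26.7, 44.9 and 17.7, and K was nearest at 49.99 and N farthest at 333 (log2 difference -2.12, SE 0.311, adjusted p = 3.03e-06). For Atf4 only replicate 3 of clone M was above the lowest library of the other clones, at 248. For Asns replicates 1 and 3 were above the lowest other library, at 32.1.

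Further members were low to different degrees. Chac1, which degrades glutathione and is a target of ATF4, was the only member called lowest, at 2.85, 2.39, 5.92 and 1.10 CPM against clone means from 10.1 to 49.1, with replicate 3 above the lowest other library of 5.19. Slc7a11, the cystine transporter, was at 21.2 against 23.2 to 663, and Trib3, a pseudokinase induced by ATF4, at 10.7 against 17.4 to 190. Phgdh, the first enzyme of serine synthesis, was at 254 against 331 to 565 (log2 difference -0.77, SE 0.0913, adjusted p = 7.26e-08). Psat1, also of serine synthesis, was at 111 against 65.5 in K to 487 in N, so clone M was not the lowest clone. Aars and Mars, genes for tRNA synthetases that were not on the list and were picked out after their values were seen, were both lowest, at 72.2 and 48.3 CPM. Atf3, Slc7a3 and Eif2ak4 were higher, Eif2ak4 by 0.32 on the log2 scale. Atf3 was at 4.16, 4.07, 59.01 and 51.1 CPM, so replicates 1 and 2 lay far below replicates 3 and 4. Without replicate 3, 26 of the 40 were lower, where 3888 of all genes were, in place of 4019 in the main fit.

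Most interferon and antigen presentation genes were higher in clone M. Of 36 tested, 27 were higher than the mean of the others and 1 was lower, against 35.5% and 29.8% of all genes, and the median log2 difference was 0.62. Clone M had the highest mean of the 7 in 12, and in 16.6% of all genes, and none was called highest by the stricter rule. H2-K1, a class I antigen-presenting gene, was at 87.8, 94.0, 94.9 and 90.7 CPM against clone means from 6.48 in K to 78.8 in N (log2 difference 1.497, SE 0.121, adjusted p = 1.22e-10), and all 4 libraries were below the highest other library of 96.97. B2m, its light chain, was at 942 ± 96.1 against 336 to 858. Tap2, a peptide transporter, was at 14.4, 15.8, 12.2 and 17.2, while N was higher at 17.97 and V was at 0.234. Gbp7, a guanylate-binding protein, was at 12.7, 10.7, 8.62 and 13.4 against at most 9.31 in any other library, which overlapped replicate 3. The 1 member lower was Ifi27. Without replicate 3, 24 of the 36 were higher, where 4620 of all genes were. With the 24 other libraries taken as 1 group 9 were higher, where 1878 of all genes were, in place of 4802 in the main fit.

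Over all genes tested, 35.5% were higher and 29.8% lower than the mean of the other clones, and the following lists are to be read against these shares. Of 27 collagen and basement membrane genes tested, 15 were lower and 6 higher, Col14a1 being highest and Col6a1 at 30.5 CPM against 53.7 to 285. In co-culture 7 of 31 were lower and 3 higher, where 30.1% and 31.4% of all genes were. Of 32 growth factor ligands and receptors, 20 were lower and 6 higher, with Igf1 highest and Nrg1 lowest at 0.864 ± 0.177 against 2.59 to 12.1. In co-culture 15 of 31 growth factor genes were lower and 6 higher. Of 29 mesenchymal genes, 15 were lower and 6 higher, with 15 of 33 lower and 4 higher in co-culture, and Fbn1, fibrillin-1, was lowest with 7 counts in clone M against 2122 in the others, although single libraries overlapped. Of 41 genes of axon guidance (ephrins, semaphorins and netrins), 21 were higher and 12 lower, and in co-culture 16 of 42 were higher and 8 lower. Efna2 was highest at 3.91 ± 0.979 against at most 1.17, and Sema3d and Efnb1 were lowest at 0.192 ± 0.123 and 3.55 ± 0.916. Of 36 glycolysis and lactate genes, 13 were higher and 9 lower, near the shares over all genes. Of 36 genes for the KPC drivers, p53 targets and cell cycle inhibitors, 7 were higher and 13 lower, the latter also near the share over all genes. Trp53 was at 260 ± 23.01 CPM against clone means from 260 to 366.

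**Figure D3:**
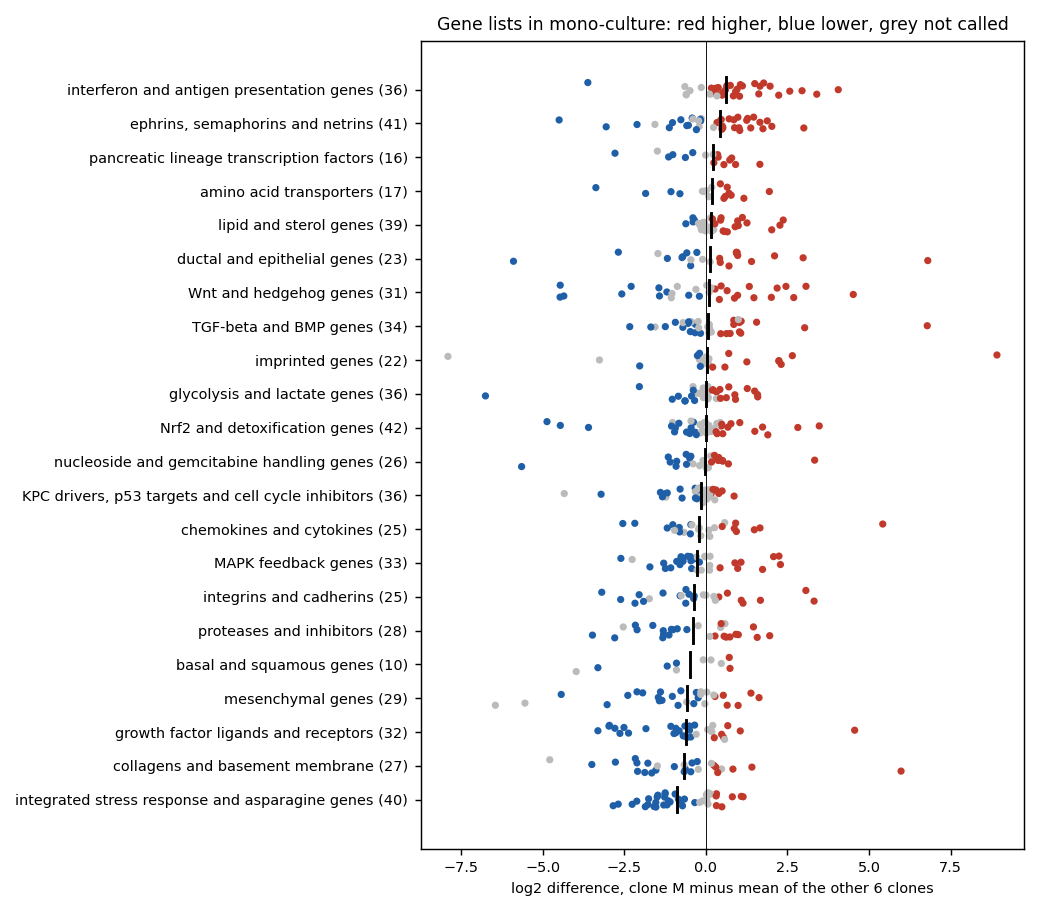
Log2 difference of clone M from the mean of the other 6 clones for each tested member of the gene lists with 10 or more tested members, in mono-culture, with the number tested in brackets. Red points were higher and blue points lower at an adjusted p under 0.1, grey points were not called, and black ticks are medians. The interferon list has the highest median, 0.62, and the integrated stress response list the lowest, -0.89.

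The co-culture libraries gave values that the mono-culture comparison did not use. In those, tumor cells had been grown with fibroblasts for 48 h and sorted for green fluorescence. Of the 147 genes highest in mono-culture, 112 were tested there and 46 were again highest, where 0.769% of all genes tested were. Of the 93 lowest, 91 were tested and 24 were again lowest, where 0.358% were. Of the 112, 99 were higher than the mean of the others in co-culture, where 31.4% of all genes were, and 2 were lower. Of the 91, 81 were lower, where 30.1% of all genes were, and 1 was higher. Summed fibroblast markers were between 948 and 1861 CPM in co-cultured clone M and between 286 and 386 in mono-culture, and their part in these values was not tested. A lower amount of RNA per cell and fewer cells of a kind cannot be told apart in bulk libraries.

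Kctd15, 5730559C18Rik and Cdh1 were lowest in co-culture as well. Kctd15 was at 0.0563 CPM there and between 14.8 and 47.7 in the other clones, 5730559C18Rik at 0.316 against 23.3 to 60.6, and Cdh1 at 0.781 ± 0.129 against 6.64 to 279. Ndn was at 5.93, 4.87, 3.90 and 5.48 in the co-cultured clone M libraries, and the other clones were between 0.264 and 0.645. Fam107a was at 22.9 ± 9.15 against at most 1.244. Other levels stood lower than in mono-culture, with Tnxb at 7.32 ± 4.38 and Cftr at 1.239 ± 0.781, or higher, with Wnt7b at 38.9 ± 17.7 against 31.2 to 164. Igf1 was at 17.4 ± 5.16 in clone M and between 2.15 and 8.30 in the others. Whether clone M differed between the cultures was not tested. Of 40 integrated stress response genes, 33 were lower and 1 higher than the mean of the others in co-culture, where 30.1% and 31.4% of all genes were. Of 42 interferon genes tested there, 13 were higher and 12 lower.

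**Figure D4:**
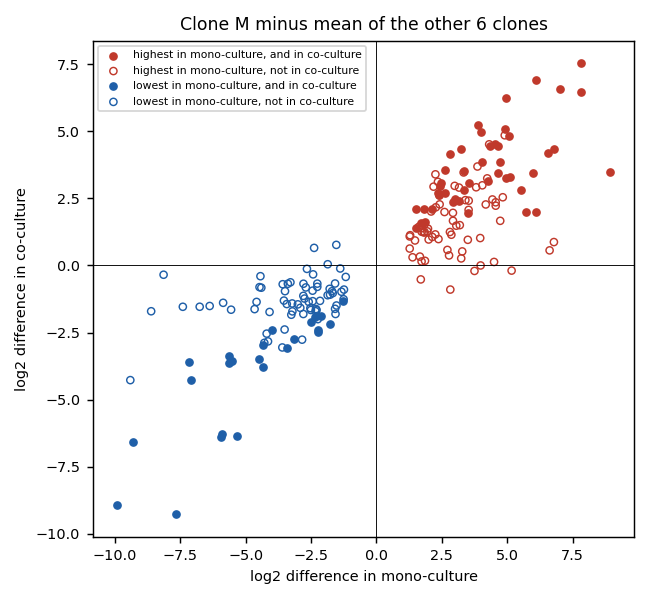
Log2 difference of clone M from the mean of the other 6 clones in mono-culture (x axis) and co-culture (y axis) for the genes highest (red) or lowest (blue) in mono-culture that were tested in both. Filled points, 46 red and 24 blue, met the same rule in co-culture.

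By chromosome, the genes of 13 and 19 stood higher in clone M. The median log2 difference from the mean of the other clones was 0.38 over 499 genes of chromosome 13 and 0.36 over 460 of chromosome 19, and -0.18 over 670 of chromosome 3, the lowest autosome. It was 0.02 over all 13357 genes with a position. In single clone M libraries the median on chromosome 19 was 0.34, 0.34, 0.33 and 0.32. When each clone was set against the other 6, chromosome 19 was at 0.32 in M and at 0.09 in N, the next. It was at -0.28 in H and -0.30 in V, and both were in the mean against which M was set. Chromosome 3 was at -0.18 in M and at -0.13 in H. Chromosome 13 was at 0.33 in M, 0.35 in K and 0.31 in V, and at -0.65 in N, so M, K and V were alike there and N was in the mean against which M was set. Over the genes tested in co-culture, the medians of M against the mean were 0.33 on chromosome 13 and 0.34 on 19. DNA copy number was not measured in this series.

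**Figure D5:**
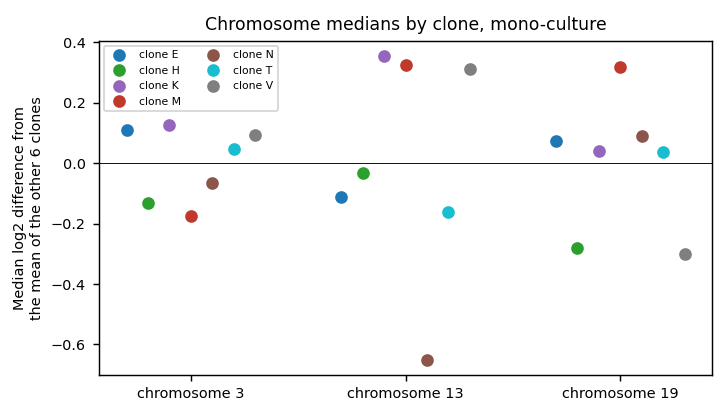
Median over genes of the log2 difference of each clone from the mean of the other 6 clones in mono-culture, for chromosomes 3, 13 and 19, with 1 point for each clone. On chromosome 19 clone M is at 0.32 and the others are at 0.09 or below; on chromosome 13 clones M, K and V are between 0.31 and 0.35 and N is at -0.65.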

How the data were processed

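RNA-seq libraries of mouse pancreatic tumor clones were analysed from 2 deposited tables. The counts are read counts per gene as deposited, which the authors made from polyadenylated, strand-specific, paired-end libraries, and the submitters' processing notes name featureCounts, edgeR and the mm10 build. The RPKM values, also deposited by the authors, are scaled for depth and gene length and served only as an alternative. The aligner is not given in the sources used here. No sample column of the tables was outside the labels.

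The 28 mono-culture libraries were fitted with edgeR 4.0.16 in R 4.3.3 (quasi-likelihood test, filterByExpr, trimmed-mean scaling, 1 mean for each of 7 clones). Clone M was tested against the unweighted mean of the other 6 clone means and against each of them, with Benjamini-Hochberg adjustment over all 13509 genes and a threshold of 0.1. Genes highest or lowest also needed a log2 difference of 1 from each clone. On was a mean of at least 1 CPM and off under 0.1 CPM, and the floor was 3 counts over the libraries of a group. Count ratios carry 95% exact binomial intervals for counting error only. Gene positions are from GENCODE M21 and promoters from RefSeq on GRCm38.p6. Up to 12 genes highest and 10 lowest were named by the gap of log2(mean CPM + 0.5) to the nearest clone, among annotated genes at 5 CPM or more whose clone M libraries lay outside the range of the others, with up to 6 genes on and 6 off, up to 4 called members of each list, and checks. The comparison, the clone and the lists were chosen with earlier results of these data known. Some genes that met the naming rule are not reported here. Further genes given as values of a list or a family were picked after their values were seen.

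On simulated counts for the 13509 genes of this comparison, 98% and 100% of genes lowered or raised by 2 on the log2 scale were called against the mean, 90% and 100% of those changed by 1, and 0.0751% of unchanged genes. There the other 6 clones shared 1 mean per gene, unlike in the data, and the spread was that within clones. The changed genes were all above 1 CPM. In each direction, the rule for highest or lowest called 48 of 50 genes changed by 2 and 8 of 50 changed by 1. No pair of the 4 clone M libraries agreed within sampling noise, with a chi-square of 3.41 to 44.1 per gene over 6 pairs. Alternatives used DESeq2 1.42.0, limma 3.58.1, other scalings, filters and thresholds, and fits that left out libraries or clones. Python 3.11.15, pandas 2.3.3, scipy 1.17.1 and matplotlib 3.10.9 were used for intervals and plots.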

Additional observations from a re-analysis of the deposited data

Results flagged for a closer look

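Among 68 sets of 4 clone M values tested for a library far from the other 3, 14 stood out by Dixon's test, where chance gives about 1 in 20. The 68 sets included 57 named genes, of which 4 stood out. Igf1 was at 9.60 CPM in replicate 3, below the other 3 libraries. Pyroxd2 was at 20.6 CPM in replicate 4, above the other 3. Eif2s3y, a Y-linked gene, was at 80.3 CPM in replicate 4, also above the others. Rmrp was at 9.47 CPM in replicate 3, where the other 3 libraries had at most 0.129.

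The other 10 were all in replicate 3 and had been picked out because that library stood apart. They were Gm26924 at 28534 CPM, Gm26917 at 1063, Gm23935 at 1347, mmu-mir-6236 at 927, Lars2 at 598, Rn7sk at 69.1, Rpph1 at 23.7, mt-Rnr1 at 2102 and mt-Rnr2 at 4146. The last was the share of counts on 9 RNA genes, at 3.77%. That share left out Lars2 and took in Rmrp. How these RNAs came into the library was not tested.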

How the results depend on the processing

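The 8821 genes that differed from the mean of the other clones became 4 when 1 sum per clone was tested and 4224 with the 24 other libraries as 1 group. In the test of sums, 0 stress response and 0 interferon genes were called. With 1 group 9 interferon genes were higher, where 1878 of all genes were higher and 2346 lower. In the other fits, between 23 and 27 stress response genes were lower and between 22 and 27 interferon genes higher. Without a filter 9595 genes differed. The 147 genes highest and 93 lowest became 228 and 176 in series A alone (a number series in the sample names that holds no mono-culture library of K), 224 and 185 without clone K, where fewer clones had to be passed, 37 and 20 with limma on log2(RPKM + 1), 773 and 758 with no minimum difference and 38 and 38 with a minimum of 2. With log2(RPKM + 0.1), 50 were lowest. Leaving out 1 clone M library gave 7977 to 8508 genes, 124 to 163 highest and 90 to 120 lowest, and leaving out 1 replicate number 7847 to 8297, 129 to 149 and 83 to 112. Genes on alone were 27 with off at 0.5 CPM and 3 with on at 2 CPM, and 4 to 6 with libraries left out. Genes off alone were 12 with off at 0.5 CPM and 7 in series A, and 3 to 6 with libraries left out. With no minimum difference, 223 genes were highest and 233 lowest in both cultures. Chromosome medians at 10 CPM or more, in co-culture and in series A were 0.2868, 0.3308 and 0.4418 on 13 and 0.3287, 0.3407 and 0.3813 on 19. On chromosome 3 they were -0.2299 at 10 CPM or more and -0.1994 in co-culture. Cdkn2a turned from -0.20 to 0.0453 in series A, 0.0787 without K and 0.0405 without V. Of the named genes' other values, 1246 kept direction and call and 59 lost the call. No gene named by the rule was called in the test of sums, where many of these losses arose. Where no construction is named, the cause was not tested. Highest and lowest calls could not be made on sums.

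With the replicate number as a replicate block, 9049 genes differed, 148 were highest and 98 lowest. Deviations of same-numbered libraries correlated from -0.106 to 0.382, with a median of 0.099 (24 pairs). The median was -0.031 over 72 pairs of different number. The main fit did not pair libraries by number, and whether the numbers pair them was not tested. Depth limits genes such as Itln1, with 73 counts in clone M and 4 elsewhere.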

Other observations

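Of 39 lipid and sterol genes tested, 15 were higher in clone M than the mean of the other clones and 4 lower, where 35.5% and 29.8% of all genes were, so the share higher was near that over all genes. Of the 39, 1 was highest. Of 10 Abca transporter genes tested, a family picked out after its values were seen, 8 were higher and 3 highest, where 35.5% and 1.09% of all genes were, and their sum was 733, 728, 610 and 825 CPM in the clone M libraries. The other clone means ran from 273.5 in N to 566 in T, and the highest other library, at 688, was above replicate 3.

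Of 33 genes of feedback on the MAPK pathway, 16 were lower and 8 higher, where 29.8% and 35.5% of all genes were, with a median log2 difference of -0.29. Summed immune markers were at 12.2 to 18.9 CPM in clone M, in the upper range of the other libraries, which had 3.23 to 21.4, and 12 of 19 had no count in clone M. Both tested immune markers were higher, and Coro1a, an actin-binding protein gene, was highest at 1.71 CPM against at most 0.70 in the other clone means. Summed endothelial markers were at 8.07 to 11.9 in clone M and 4.92 to 20.8 in the others. Neural and Schwann markers summed to 48.5 to 52.4 in clone M and 43.5 to 92.1 in the others, and acinar and endocrine markers to 2.45 to 2.90 and 2.00 to 20.4.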
